A study of Mus musculus with 19 samples.

Results

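The pericentral Wnt target genes described here are Glul, Slc1a2, Rhbg, Oat, Lhpp, Lgr5, Axin2, Rnf43, Znrf3 and Tbx3. They were taken by symbol from a table of gene counts, and all 10 were found among its 24537 genes. Hepatocytes, the cells that carry out most of the liver's metabolism, came from wild-type male C57BL/6J mice by perfusion of the liver, and their poly(A) RNA was sequenced with 1 library per mouse. The young group held 10 mice aged 5 months and the old group held 9 mice aged 24 months. They were culled on 2 days 23 days apart, with 5 young and 5 old mice on the first day and 5 young and 4 old mice on the second. No transgene, deletion or treatment was labelled in either group. A library stands for the hepatocytes of a whole liver, so the position of a cell in the lobule was not measured. Mice are named by their library numbers.

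Hepatocytes differ along the blood flow from the portal tract to the central vein. Endothelial cells of the central vein release Wnt ligands and R-spondin, and beta-catenin in the hepatocytes next to them switches on pericentral genes. R-spondins bind Lgr receptors and so keep the ubiquitin ligases Rnf43 and Znrf3 from removing Frizzled receptors from the cell surface. Axin2 acts in the complex that destroys beta-catenin and is itself a beta-catenin target, which closes a feedback loop. Pericentral hepatocytes are known for taking up ammonia and glutamate and making glutamine.

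Upstream sequence is shown for some of the genes with a promoter window. They are Slc1a2, which held the letters searched, Oat and Axin2, each a member of a pair that varied together, and Glul, the best known pericentral marker. RefSeq promoter windows of GRCm38.p6 were matched by symbol for 5 of the 10 genes: Glul, Oat, Slc1a2, Axin2 and Rnf43. The TCF/LEF core letters CTTTGAT were searched on both strands of each window, from 250 bases before the gene's start to 50 after it. They were found for 1 of the 5 genes, Slc1a2, where they stand on the minus strand 207 bases before the start and read ATCAAAG on the strand printed. Of 32851 mouse promoter windows of the same length, 3.73% held CTTTGAT. With the looser letters CTTTGA, which CTTTGAT contains, the same 1 gene matched, against 16% of windows. The Slc1a2 sequence also holds CTTTGA on the plus strand, away from the CTTTGAT match and printed in small letters. A match describes letters and not a binding site. The 250 bases before each start are printed 5′ to 3′ on the gene's strand, with the match in capitals. They lie at chr2:102706188-102706437 on the plus strand for Slc1a2, chr7:132576399-132576648 on the minus strand for Oat, chr11:108920099-108920348 on the plus strand for Axin2 and chr1:153899679-153899928 on the plus strand for Glul.
Slc1a2: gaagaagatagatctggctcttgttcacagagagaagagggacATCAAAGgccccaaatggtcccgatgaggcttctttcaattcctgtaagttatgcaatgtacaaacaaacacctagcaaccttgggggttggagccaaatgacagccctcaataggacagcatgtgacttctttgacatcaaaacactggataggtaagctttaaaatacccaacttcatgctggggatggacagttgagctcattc
Oat: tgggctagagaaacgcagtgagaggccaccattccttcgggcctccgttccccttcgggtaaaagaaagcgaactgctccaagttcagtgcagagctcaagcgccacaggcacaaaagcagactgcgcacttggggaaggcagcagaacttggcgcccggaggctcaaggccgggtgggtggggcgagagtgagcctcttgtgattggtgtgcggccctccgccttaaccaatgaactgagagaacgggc
Axin2: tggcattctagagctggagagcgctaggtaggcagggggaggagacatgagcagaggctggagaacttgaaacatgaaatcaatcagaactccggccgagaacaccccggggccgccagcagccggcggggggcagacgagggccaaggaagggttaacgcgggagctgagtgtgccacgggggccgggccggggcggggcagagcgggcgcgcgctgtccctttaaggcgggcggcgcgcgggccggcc
Glul: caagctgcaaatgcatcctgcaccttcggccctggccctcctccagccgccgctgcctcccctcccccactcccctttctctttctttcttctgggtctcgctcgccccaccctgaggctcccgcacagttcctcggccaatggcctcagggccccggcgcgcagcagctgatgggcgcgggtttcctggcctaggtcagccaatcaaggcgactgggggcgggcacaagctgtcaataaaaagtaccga

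Gene totals were 17381439 to 20287628 counts a library, with means of 18575212 ± 679514 at 5 months (SD, n = 10) and 19549006 ± 620306 at 24 months (SD, n = 9). Hepatocyte identity genes such as Alb, the albumin gene, summed to 127390 to 171017 CPM (counts scaled by TMM to a library of common size) in young and 141503 to 225457 CPM in old libraries. Cyp2e1, a pericentral cytochrome, and Cyp2f2, a periportal one, averaged 4265 and 1523 CPM in young mice. Young mice 1184, 1186 and 1188, all culled on the first day, stood apart: the acute phase gene Saa1 was at 3188 to 8281 CPM in them, at 15.8 to 33.9 CPM in the other 7 young mice and at 32.3 to 596 CPM in old mice. Old mouse 1187 had the highest mean level of other-cell markers. Values of the 10 genes that rest on these mice are given with and without them.

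On mm10, the build of the deposited table, the genes stand at chr1:153899929-153909723 (Glul), chr2:102706438-102790784 (Slc1a2), chr3:88242874-88254684 (Rhbg), chr7:132557475-132576398 (Oat), chr7:132610643-132706419 (Lhpp) and chr10:115450314-115587780 (Lgr5). Axin2 stands at chr11:108920349-108950781, Rnf43 at chr11:87663087-87735539, Znrf3 at chr11:5276329-5381740 and Tbx3 at chr5:119670862-119684724. Counts are over the exons of each gene. All 10 genes passed the filter on low counts. Their levels per kilobase of transcript, which allow genes to be compared, spanned a wide range. Oat was highest, at 210 CPM per kb in young mice and 140 CPM per kb in old mice, and Glul followed at 90.6 and 78.6 CPM per kb. Lhpp came next at 24.2 and 18.99 CPM per kb. Slc1a2 (5.03 and 3.91 CPM per kb), Tbx3 (4.55 and 6.66) and Rnf43 (3.29 and 3.50) formed a middle range. The lowest levels were those of Rhbg (1.62 and 0.801 CPM per kb), Znrf3 (1.02 and 0.865), Axin2 (1.02 and 1.27) and Lgr5 (0.764 and 0.479).

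The top of this order was the same in nearly every mouse. Oat exceeded Glul in 10 of 10 young and 8 of 9 old libraries, and Glul exceeded Lhpp in all 19. Lower down, several neighbours were not separated by their spread. Slc1a2 exceeded Tbx3 in 6 of 10 young libraries, and Tbx3 exceeded Slc1a2 in 9 of 9 old ones. Znrf3 exceeded Axin2 in 4 of 10 young libraries, and Axin2 exceeded Znrf3 in 9 of 9 old ones.

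**Figure D1:**
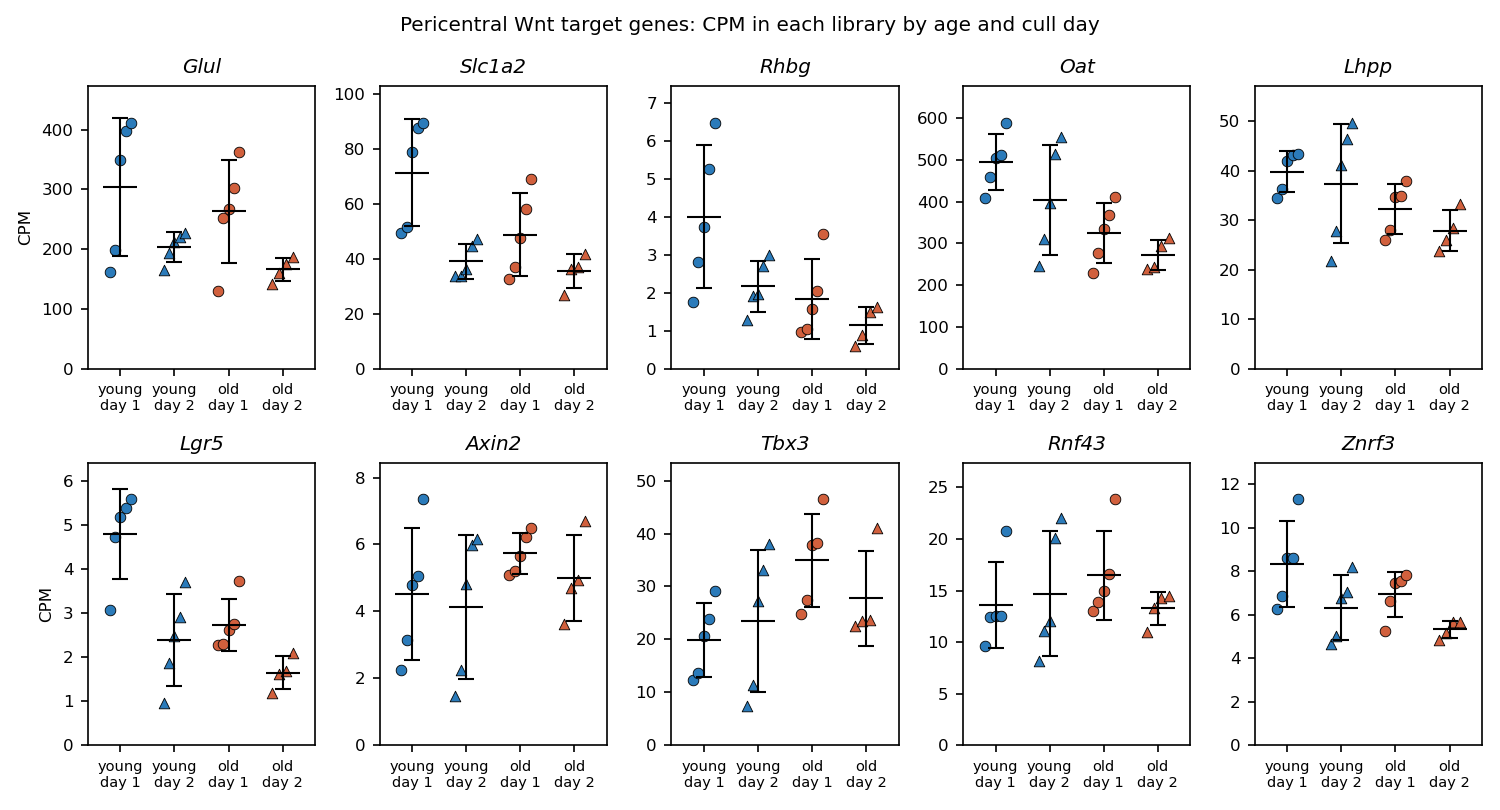
Level of each of the 10 genes in every library, in CPM, for young and old mice on each cull day (circles day 1, triangles day 2). Points are mice, long lines are means and whiskers are 1 SD. The old mice lie within or below the range of the young mice for most genes, and no gene separates the ages completely.

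With age, 4 of the 10 genes fell and none rose. Those that fell were Rhbg, Lgr5, Oat and Lhpp, by edgeR's quasi-likelihood test with cull day as a covariate and an adjusted p of 0.05. Over the 12269 genes tested, 14.5% were called lower in old mice and 16.3% higher, 30.9% in all. The count was 4 with DESeq2's size factors (15.7% of genes called lower), 4 by DESeq2 (15%), 3 by limma-voom (15.6%) and 3 with library totals alone (9.53%). With the totals in the column names it was 4 (11.7%), with no filter 4 (11.6%) and with a filter of at least 1 CPM in 9 libraries 3 (13.8%). Leaving out each mouse in turn gave 3 to 5, with 12.1% to 15.2% of genes called lower. It was 2 without a cull day term (11.5%), 2 without the 3 young mice with high Saa1 (12.5%) and 3 without old mouse 1187 (12.1%). At an unadjusted p under 0.05 there were 5 of the 10, all lower, with Slc1a2 added, against 20.5% of genes tested lower and 42.3% in either direction at that p, and no rise was called by DESeq2 or limma-voom either. The median log2 fold change of the 10 genes was -0.31, against -0.003 over all genes tested. For none of the 10 did every old library lie below every young one, a pattern shown by 0.725% of genes tested, and for none did every old library lie above every young one (0.978%). In a bulk library, fewer pericentral cells and less RNA per pericentral cell cannot be told apart.

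Oat, ornithine aminotransferase, links ornithine to glutamate. Its level ran from 245 to 589 CPM in young mice with a median of 481, and from 229 to 412 CPM in old mice with a median of 294. All 9 old mice lay below the young median and 3 of them below every young mouse, but the ranges overlapped. Mean levels were 449 ± 109 CPM at 5 months (SD, n = 10) and 301 ± 62.2 CPM at 24 months (SD, n = 9). As a log2 fold change this was -0.59 (SE 0.14, adjusted p = 0.00503 by edgeR). On the first cull day 4 of 5 old mice were below every young mouse of that day, and on the second 2 of 4 were. Oat remained called without the 3 young mice, at -0.51 (adjusted p = 0.0326 by edgeR).

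Lhpp, a histidine phosphatase gene, lies on chromosome 7 as Oat does, 34244 bases away on the opposite strand. It ran from 21.8 to 49.7 CPM in young mice (median 41.5) and from 23.8 to 37.9 CPM in old mice (median 28.4). All 9 old mice were below the young median, while the lowest mouse of all was young. Mean levels were 38.6 ± 8.61 CPM at 5 months (SD, n = 10) and 30.3 ± 4.96 CPM at 24 months (SD, n = 9), or -0.36 as a log2 fold change (SE 0.13, adjusted p = 0.0421 by edgeR). The call is close to the threshold: it was lost in 11 of the 19 fits that leave out 1 mouse, with an adjusted p of at most 0.0805, and its log2 fold change stayed between -0.42 and -0.30 in them.

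Rhbg, a membrane transporter of ammonia, had 12 to 116 counts per library. It ran from 1.29 to 6.47 CPM in young mice (median 2.75) and from 0.583 to 3.54 CPM in old mice (median 1.48). Of the old mice, 8 of 9 lay below the young median and 4 below every young mouse. Mean levels were 3.08 ± 1.65 CPM at 5 months (SD, n = 10) and 1.52 ± 0.880 CPM at 24 months (SD, n = 9), or -1.03 as a log2 fold change (SE 0.29, adjusted p = 0.0121 by edgeR). The 3 young mice with high Saa1 held 3.72, 6.47 and 5.27 CPM of Rhbg, and without them the difference was -0.68 and no longer passed (adjusted p = 0.120 by edgeR).

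Glul, glutamine synthetase, did not pass. It ran from 161 to 411 CPM in young mice (median 216) and from 130 to 363 CPM in old mice (median 187). Mean levels were 254 ± 95.3 CPM at 5 months (SD, n = 10) and 220 ± 80.1 CPM at 24 months (SD, n = 9), or -0.25 as a log2 fold change (SE 0.18, adjusted p = 0.307 by edgeR). The high young values were those of mice 1184, 1186 and 1188, at 350, 411 and 398 CPM. The other 7 young mice held 161 to 226 CPM. Without these 3 mice the fold change was 0.022 (adjusted p = 0.946 by edgeR). With a covariate for other cells, the mean log2 CPM of endothelial, stellate cell and macrophage markers (other-cell score), it was -0.74 (adjusted p = 0.0110 by edgeR). The score itself ran higher with age, from 2.32 to 3.82 in young and 2.56 to 5.60 in old mice. Fits with it therefore cannot fully separate the score from age.

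Slc1a2, a glutamate transporter, did not pass either. It ran from 33.6 to 89.6 CPM in young mice (median 48.4) and from 26.9 to 69.1 CPM in old mice (median 37.1). Its means were 55.3 ± 21.9 CPM (SD, n = 10) and 42.9 ± 13.3 CPM (SD, n = 9), and the log2 fold change of -0.36 (SE 0.16) did not pass (adjusted p = 0.0870 by edgeR). Mice 1184, 1186 and 1188 were again the 3 highest young mice, at 79.1, 89.6 and 87.6 CPM, and without them the difference was -0.10 (adjusted p = 0.635 by edgeR).

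Lgr5, a receptor for R-spondins, fell. Its level was low, 0.955 to 5.58 CPM in young mice (median 3.38) and 1.19 to 3.73 CPM in old mice (median 2.28), from 17.5 to 100 counts per library. A gene on the opposite strand, A930009A15Rik, overlaps it and averaged 0.105 counts. Of the old mice, 8 of 9 were below the young median, and the ranges overlapped, with the highest old mouse above the young median. Means were 3.58 ± 1.59 CPM (SD, n = 10) and 2.25 ± 0.746 CPM (SD, n = 9), or -0.70 as a log2 fold change (SE 0.20, adjusted p = 0.0134 by edgeR). On the first cull day 4 of 5 old mice lay below every young mouse, and on the second none of 4 did. Without the 3 young mice it was again -0.70 (adjusted p = 0.0325 by edgeR), and without a cull day term it was -0.68 and did not pass (adjusted p = 0.0715 by edgeR).

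The ubiquitin ligases Znrf3 and Rnf43 did not pass in either direction. Znrf3 ran from 4.65 to 11.3 CPM in young mice (median 6.94) and from 4.83 to 7.82 CPM in old mice (median 5.66), a log2 difference of -0.26 (SE 0.12, adjusted p = 0.121 by edgeR). Rnf43 ran from 8.12 to 22.0 CPM in young mice (median 12.5) and from 11.0 to 23.8 CPM in old mice (median 14.2), a log2 difference of 0.08 (SE 0.18, adjusted p = 0.779 by edgeR). The groups overlapped for both genes. The sign for Rnf43 was not stable, at -0.10 without mice 1184, 1186 and 1188 and -0.024 without old mouse 1183. Rnf43 shares 5804 bases with 1110028F11Rik on the same strand, which averaged 14.3 counts per library, so a few of its counts may belong to that gene.

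Axin2 ran from 1.46 to 7.35 CPM in young mice (median 4.81) and from 3.61 to 6.71 CPM in old mice (median 5.22), inside the young range. Means were 4.32 ± 1.96 CPM (SD, n = 10) and 5.405 ± 0.981 CPM (SD, n = 9), and the log2 fold change of 0.31 (SE 0.24) did not pass (adjusted p = 0.351 by edgeR). Tbx3, a T-box repressor of transcription, ran from 7.41 to 38.0 CPM in young mice (median 22.3) and from 22.6 to 46.5 CPM in old mice (median 27.5). Every old mouse was above the young median and 3 were above every young mouse. Means were 21.7 ± 10.3 CPM (SD, n = 10) and 31.7 ± 9.13 CPM (SD, n = 9), or 0.54 as a log2 fold change (SE 0.26) that did not pass (adjusted p = 0.123 by edgeR). Both genes had wide young groups: the coefficient of variation was 45.3% in young and 18.1% in old mice for Axin2 and 47.4% and 28.8% for Tbx3. The difference in spread was not tested.

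**Figure D2:**
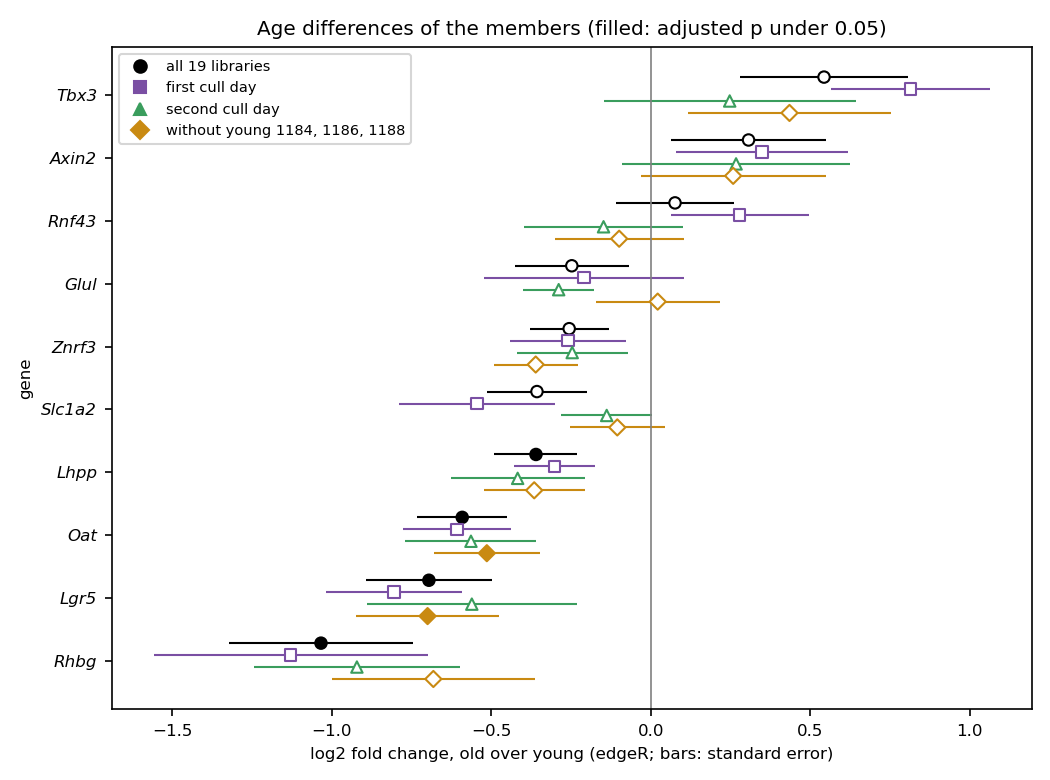
Log2 fold change of each gene, old over young, with its standard error, from the fit of all libraries, each cull day alone and the fit without young mice 1184, 1186 and 1188, with filled symbols for an adjusted p under 0.05. Rhbg, Lgr5, Oat and Lhpp are called in the fit of all libraries, and Glul sits at 0.022 without the 3 young mice with high Saa1.

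For the 4 genes that fell, the age difference had the same sign on both cull days. The log2 fold changes on the first and second day were -0.80 and -0.56 for Lgr5, -0.61 and -0.56 for Oat, -0.30 and -0.42 for Lhpp and -1.13 and -0.92 for Rhbg. No member was called on either day alone, where 1.79% and 7.15% of genes were called lower. The age by cull day interaction was called for 0 of 12269 genes by edgeR, with 799 at an unadjusted p under 0.05 and none of the 10 members among them.

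The cull days themselves differed. Compared with the first day, 4 of the 10 genes were lower on the second by edgeR's test, against 6.55% of genes tested (12.3% were called in either direction). They were Lgr5 with a log2 fold change of -0.89 (adjusted p = 0.0124), Slc1a2 with -0.68 (adjusted p = 0.0150), Glul with -0.62 (adjusted p = 0.0334) and Znrf3 with -0.39 (adjusted p = 0.0462). For Lgr5 the young means were 4.78 ± 1.02 CPM on the first day and 2.38 ± 1.04 CPM on the second (SD, n = 5 each). Rhbg, at -0.80, did not pass (adjusted p = 0.0714 by edgeR). Without mice 1184, 1186 and 1188 no gene in the whole table was called between the days, where Lgr5 was at -0.89 (adjusted p = 0.0822 by edgeR) and Znrf3 at -0.49 (adjusted p = 0.0862). Glul then shrank to -0.35 (adjusted p = 0.334 by edgeR) and Slc1a2 to -0.42 (adjusted p = 0.137). The labels give all mice of an age group the same birth date, so mice of the second day were 23 days older. Nothing but the date is labelled for a cull day itself. What else differed between the days cannot be told apart from the date or from those 23 days of age.

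Within mice of one age and one cull day, the genes did not vary as a single group. On log2 CPM with the mean of each age and day removed, Axin2 and Tbx3 rose and fell together, and so did Oat and Lhpp. Of the 45 pairs, these 2 passed by Pearson's r. Axin2 and Tbx3 had r = 0.94 and rho = 0.92 over 19 mice (permutation p = 2.0e-05 and adjusted p = 0.00090 for r, permutation p = 5.0e-05 and adjusted p = 0.00225 for rho). Without the 2 mice farthest from the median of Axin2, r was 0.91, and it was 0.98 in young mice, 0.72 in old mice, 0.86 on the first day and 0.98 on the second.

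The wide young values came from the same mice for both genes. Young mice 1182, 1186, 1235 and 1239 held 2.24, 3.15, 1.46 and 2.23 CPM of Axin2 and 12.3, 13.7, 7.41 and 11.4 CPM of Tbx3, the 4 lowest young values of each. The young mouse with the most Axin2, 1180, held 29.1 CPM of Tbx3, and the one with the most Tbx3, 1243, held 5.98 CPM of Axin2. Rnf43 was lowest in mouse 1239 (8.12 CPM) and mouse 1186 (9.65 CPM). Its relation passed with Tbx3 by rho = 0.78 (adjusted permutation p = 0.0292) and with Axin2 by rho = 0.73 (adjusted permutation p = 0.0347), but not by r, at 0.72 and 0.71 (adjusted permutation p = 0.0655 and 0.0660).

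Oat and Lhpp had r = 0.89 and rho = 0.83 over 19 mice (permutation p = 0.00018 and adjusted p = 0.00405 for r, permutation p = 0.00084 and adjusted p = 0.0189 for rho). Without the 2 mice farthest from the median of Oat, r was 0.83, and it was 0.93 in young and 0.81 in old mice. Young mice 1237 and 1235 were lowest for both genes, at 245 and 310 CPM of Oat and 21.8 and 27.9 CPM of Lhpp. Nkx1-2 lies between Oat and Lhpp. Both pairs passed in each of the 5 alternatives tried.

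Glul went with Slc1a2 (r = 0.72, adjusted permutation p = 0.0571) and Rhbg (r = 0.70, adjusted permutation p = 0.0537), short of the threshold by r, and with Rhbg passed by rho = 0.68 (adjusted permutation p = 0.0404). These relations lean on mice 1184, 1186 and 1188, without which r was 0.52 for Glul with Slc1a2 and 0.56 for Glul with Rhbg. Glul and Slc1a2 passed without old mouse 1187 (r = 0.90, adjusted permutation p = 0.00157). With the other-cell score removed they also passed (r = 0.83, adjusted permutation p = 0.00360), while Glul with Rhbg was at r = 0.43 (adjusted permutation p = 0.382). Rhbg ran against Tbx3 (r = -0.58, adjusted permutation p = 0.0537; rho = -0.60, adjusted permutation p = 0.0404), and against Rnf43 by rho = -0.64 (adjusted permutation p = 0.0347). Without mice 1184, 1186 and 1188 Rhbg against Tbx3 passed by r = -0.68 (adjusted permutation p = 0.0144) and by rho = -0.70 (adjusted permutation p = 0.0246). Slc1a2 and Oat passed by rho = 0.61 (adjusted permutation p = 0.0455). In all, 8 of 45 pairs passed by rho, but 3 did without old mouse 1187, where none of these relations of Rnf43 and Rhbg or of Slc1a2 with Oat passed. The number by rho was 5 without mice 1184, 1186 and 1188, 5 with the other-cell score removed and 5 with library totals alone.

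**Figure D3:**
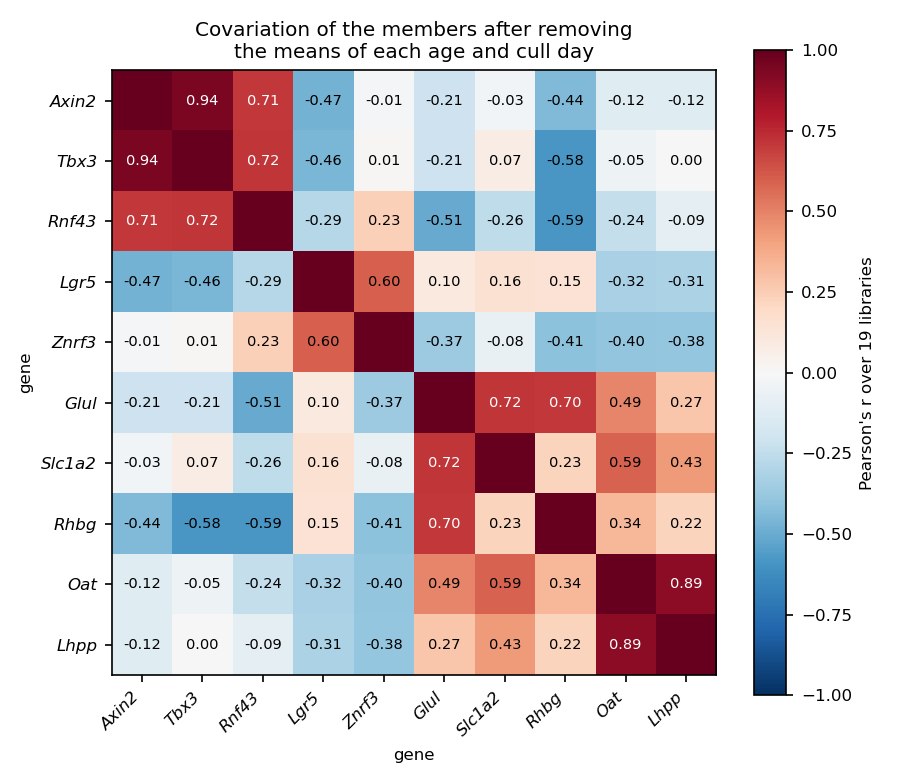
Pearson's r between each pair of the 10 genes over 19 mice, on log2 CPM with the mean of each age and cull day removed. Axin2 with Tbx3 (0.94) and Oat with Lhpp (0.89) are the 2 pairs that passed.

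**Figure D4:**
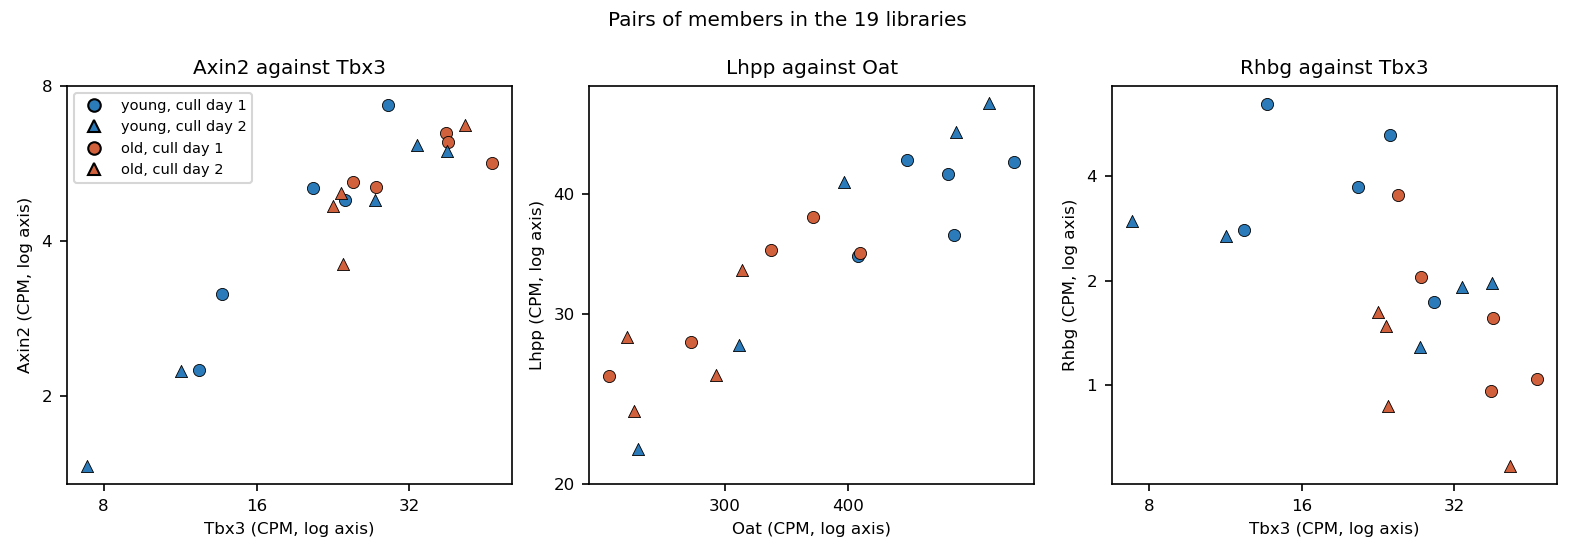
Axin2 against Tbx3, Lhpp against Oat and Rhbg against Tbx3, in CPM on log axes, with each point 1 mouse by age and cull day. Young mice 1182, 1186, 1235 and 1239 hold the 4 lowest young values of both Axin2 and Tbx3.

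Against the 11613 other genes with a mean of at least 1 CPM, the pairs stayed close. Axin2 was the gene most like Tbx3 (r = 0.94), ahead of Txlng (0.87), Iffo2 (0.85), Mgea5 (0.84) and Urgcp (0.84). Lhpp was the gene most like Oat (r = 0.89), followed by H2-Q10 (0.88), Tceal8 (0.82), Cldn2 (0.81) and Ubxn8 (0.80). The genes most like Glul were Gas6 (0.92), Mir8114 (0.91), Fam124a (0.91), Gnat1 (0.90) and Mafk (0.90), and Mir8114 lies inside Glul on the same strand, so its counts are not separate. No p was given for these ranks.

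Transcripts of genes that act upstream of the members were counted in the same hepatocyte libraries. Ligand protein and signalling were not measured. The counts in the gene lists below stand beside 14.5% of all genes tested called lower and 16.3% called higher. Of 19 Wnt ligand genes, 3 passed the filter and none was called with age by edgeR, none at an unadjusted p under 0.05 and none by limma-voom. Wnt9a was at 0.25 (adjusted p = 0.597 by edgeR) and Wnt5b at 0.05 (adjusted p = 0.819). Wnt4, named after its values were seen, missed the filter: it ran from 0.158 to 0.518 CPM in young and 0.391 to 1.59 CPM in old libraries, on 3 to 36.5 counts. Where other settings kept it, it was called higher: 1.86 with no filter (adjusted p = 0.000199 by edgeR), 1.91 by DESeq2 (adjusted p = 1.73e-06), 1.97 on the second cull day alone (adjusted p = 0.00170 by edgeR) and 1.96 without mice 1184, 1186 and 1188 (adjusted p = 0.00140 by edgeR). Wnt2, a ligand of central vein endothelium, was at 1.49 ± 0.435 CPM at 5 months (SD, n = 10) and 1.43 ± 0.380 CPM at 24 months (SD, n = 9), with a log2 fold change of -0.03 (adjusted p = 0.910 by edgeR). Wnt9b, the other such ligand, had 0 to 4 counts in young and 0 to 8 in old libraries and was not tested. Of the R-spondin genes, Rspo3 was tested and the other 3 had no count in any library. Rspo3 rose from 0.745 ± 0.320 to 2.28 ± 0.988 CPM, a log2 fold change of 1.62 (SE 0.26, adjusted p = 0.000301 by edgeR). Wls, which carries Wnt ligands to the surface, rose by 1.13 (adjusted p = 0.00374 by edgeR), and Porcn, which acylates them, was at 0.33 (adjusted p = 0.163).

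Rspo3 is known from endothelial and stellate cells, and markers of other liver cells moved with age too. Of 15 stellate cell markers 14 rose, among them Cygb (log2 fold change 2.21) and Lrat (1.52). All 14 macrophage markers rose, among them Lyz2 (2.48) and Marco (2.16). Without old mouse 1187 there were 2, Lyz2 at 1.34 (adjusted p = 0.0183 by edgeR) and Marco at 2.09 (adjusted p = 0.0197), and 9 rose without old mouse 1242. Without mice 1184, 1186 and 1188 Marco was at 3.27. Of 15 endothelial markers 11 rose, among them Kdr (0.77) and Clec4g (0.72). Summed levels ran from 50.5 to 136 CPM in young and 139 to 493.2 CPM in old libraries for stellate cells, 133 to 567 and 92.4 to 3682 CPM for macrophages, and 203 to 365 and 210 to 679 CPM for endothelium. No marker of these 3 lists was at 0 in all libraries. Of 7 central vein endothelium genes tested, Rspo3 and Bmp2 (0.72) rose, and Bmp2 did not pass with the other-cell score (0.21, adjusted p = 0.321 by edgeR). Of 7 cholangiocyte markers Spp1 was tested and did not pass, and its sign turned without mice 1184, 1186 and 1188 (-0.34, adjusted p = 0.752 by edgeR with all mice, and 1.57, adjusted p = 0.0873 without them). Of 12 lymphocyte markers Cd4 passed the filter and was not called (0.10, adjusted p = 0.900 by edgeR). Its sign turned without old mouse 1187 (-0.79, adjusted p = 0.0784 by edgeR), without mice 1184, 1186 and 1188 (-0.11) and by limma-voom (-0.56). With no filter 10 lymphocyte markers were called higher, and 4 were by DESeq2. The summed lymphocyte level was 43.5 CPM in old mouse 1187, 2.02 to 3.94 CPM in the other old mice and 1.35 to 3.21 CPM in young mice. Of 11 hepatocyte identity genes tested, Alb (0.47) and Apoa1 (0.41) rose and Hnf4a (-0.30) fell, and without mice 1184, 1186 and 1188 neither Alb (0.23, adjusted p = 0.167 by edgeR) nor Hnf4a (-0.29, adjusted p = 0.0726) passed. With the other-cell score Alb was at 0.74 (adjusted p = 0.0208 by edgeR) and Hnf4a did not pass (-0.17, adjusted p = 0.373). Over the fits that leave out 1 mouse, 0 to 3 hepatocyte identity genes were called lower and 1 to 2 higher. Over the other alternatives, 0 to 4 were called lower and 0 to 3 higher. Once the other-cell score was added, Rspo3 stayed higher (0.99, adjusted p = 0.0105 by edgeR), Wls did not pass (0.19, adjusted p = 0.530) and Porcn was called higher (0.70, adjusted p = 0.0187). Of the 10 members 4 were then called lower, against 6.2% of genes tested, and they were Rhbg (-1.76), Lgr5 (-0.82), Glul (-0.74) and Oat (-0.64). Tbx3 (0.94, adjusted p = 0.0603 by edgeR), Axin2 (0.56, adjusted p = 0.227) and Rnf43 (0.38, adjusted p = 0.231) were not called. Neither were Slc1a2 (-0.52), Lhpp (-0.31) and Znrf3 (-0.14).

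Of 11 receptor genes tested, Fzd6 rose (0.40, adjusted p = 0.0448 by edgeR) and Lgr4, an R-spondin receptor related to Lgr5, fell from 58.9 ± 12.7 to 48.3 ± 8.59 CPM (-0.29, adjusted p = 0.0429 by edgeR). Without mice 1184, 1186 and 1188 neither passed (Fzd6 0.33, adjusted p = 0.146 by edgeR, and Lgr4 -0.20, adjusted p = 0.204 by edgeR), and Lgr4 did not without old mouse 1187 (-0.23, adjusted p = 0.0708 by edgeR) or with the other-cell score (-0.30, adjusted p = 0.164). Of the 19 fits that leave out 1 mouse, 4 called a receptor higher and 7 called one lower. Of 4 secreted or membrane inhibitors tested, Dkk3 (1.28) and Frzb (1.51) rose. With the other-cell score Dkk3 stayed (0.80, adjusted p = 0.0129 by edgeR) and Frzb did not (0.33, adjusted p = 0.534). Of 9 genes of the beta-catenin destruction complex and beta-catenin, Gsk3b (-0.35), Fbxw11 (-0.24) and Csnk1a1 (-0.24) fell. That count was 1 without mice 1184, 1186 and 1188, where Fbxw11 (-0.20, adjusted p = 0.0615 by edgeR) and Csnk1a1 (-0.16, adjusted p = 0.154) did not pass. It was also 1 with the other-cell score, where Gsk3b (-0.35, adjusted p = 0.0702 by edgeR) and Csnk1a1 (-0.29, adjusted p = 0.0685) did not, and ran from 0 to 5 over the alternatives. Ctnnb1, beta-catenin itself, was at 224 ± 29.0 and 202 ± 11.8 CPM (log2 fold change -0.15, adjusted p = 0.112 by edgeR). Of 15 transducers, Dvl2 (0.54), Tcf7 (0.45) and Bcl9 (0.46) rose, where 16.3% of all genes tested were called higher. Bcl9 was lost without mice 1184, 1186 and 1188 (0.38, adjusted p = 0.151 by edgeR), without old mouse 1187 (0.36, adjusted p = 0.0749) and with the other-cell score (0.22, adjusted p = 0.495), where Tcf7 was lost too (0.35, adjusted p = 0.160).

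Of 9 other Wnt feedback targets tested, 4 rose and none fell: Tnfrsf19 (0.98, adjusted p = 0.00495 by edgeR), Nkd1 (0.96, adjusted p = 0.00892), Cd44 (1.25) and Tcf7 (0.45). Their median log2 fold change was 0.45, against -0.31 for the 10 members. With the other-cell score, 1 of them stayed called, Tnfrsf19 (1.06, adjusted p = 0.0340 by edgeR), Nkd1 did not pass (0.31, adjusted p = 0.441) and Cd44 had the opposite sign (-0.50, adjusted p = 0.0662). Without mice 1184, 1186 and 1188, 6 were called higher and Tnfrsf19 was at 0.60 (adjusted p = 0.0200 by edgeR). Without old mouse 1187 there were 3, and Cd44 did not pass (0.82, adjusted p = 0.111 by edgeR).

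Other zonated genes give the setting for the members. Of 25 further pericentral genes, 5 fell and 1 rose, with a median of -0.21. Of all genes tested, 14.5% were called lower and 16.3% higher. Cyp1a2, a drug-metabolising cytochrome, fell from 430 ± 96.1 to 229 ± 61.4 CPM (-0.91, adjusted p = 0.000290 by edgeR) and Sult5a1 by 0.89 on the log2 scale (adjusted p = 0.00167). Cyp2c29 (-0.43), Gulo (-0.43) and Cpox (-0.37) also fell, and Avpr1a rose (0.65). With the other-cell score Cyp2c29 (-0.05, adjusted p = 0.885 by edgeR), Cpox (-0.24, adjusted p = 0.238) and Avpr1a (0.71, adjusted p = 0.0605) did not pass, and without old mouse 1187 Cyp2c29 did not (-0.36, adjusted p = 0.0783). Cyp2e1 was at 4265 ± 1024 and 3703 ± 1139 CPM (-0.25, adjusted p = 0.203 by edgeR). It was called lower without mice 1184, 1186 and 1188 (-0.43, adjusted p = 0.0329 by edgeR) and had the opposite sign with the other-cell score (0.09, adjusted p = 0.755 by edgeR). The count of falls was 10 without mice 1184, 1186 and 1188, against 12.5% of genes tested. Of 25 periportal genes, 11 fell and 2 rose, with a median of -0.36, among them Cyp2f2 (-0.57) and Cps1 (-0.64), the entry enzyme of the urea cycle. With the other-cell score 4 periportal and 4 of the further pericentral genes were called lower, against 6.2% of genes tested. Genes of both zones were among those that fell.

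Glutamine, glutamate and proline handling genes outside the members showed falls and rises. Of 21 tested, 7 fell and 3 rose, and with the other-cell score 2 were called lower and none higher. Pycrl, of proline synthesis, fell from 18.5 ± 3.01 to 14.1 ± 1.72 CPM (-0.37, adjusted p = 0.000603 by edgeR), and Slc38a2, an amino acid transporter, fell by 0.56 on the log2 scale (adjusted p = 0.00455). The count of falls was 4 without old mouse 1187, and also 4 without young mouse 1180, old mouse 1238 or old mouse 1242.

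Acute phase genes, whose levels set the 3 young mice apart, were called in neither direction by edgeR (0 of 14, with 1 at an unadjusted p under 0.05, 0 by DESeq2 and 1 by limma-voom). Itih4 was at 0.52 (adjusted p = 0.106 by edgeR) and Hpx at 0.61 (adjusted p = 0.179), or -0.06 with the other-cell score. Because the mice were set apart by these genes, no age difference of acute phase genes is given without them. Their summed level was 54237 to 91326 CPM in the 3 mice, 16001 to 19868 CPM in the other young mice and 21338 to 61233 CPM in old mice. The mean log2 level of these genes was set against each member over 19 mice, with age and cull day means removed, as part of 40 relations added after seeing the data. Glul went with it (r = 0.82, permutation p = 0.00157, adjusted p = 0.0314; rho = 0.84, permutation p = 0.00112, adjusted p = 0.0224), and r was 0.73 without the 2 farthest mice. Rhbg passed by rho = 0.73 (permutation p = 0.00338, adjusted p = 0.0451) and not by r = 0.68 (permutation p = 0.00585, adjusted p = 0.0539), which was 0.51 without the 2 farthest mice. Slc1a2 did not pass (r = 0.55, adjusted permutation p = 0.189). On the second cull day, which held none of the 3 mice, r was -0.10 for Glul, 0.81 for Rhbg and -0.42 for Slc1a2 (n = 9 mice). In old mice, which also exclude those 3, it was 0.64 for Glul, 0.56 for Rhbg and 0.05 for Slc1a2 (n = 9 mice). Glul and Rhbg also went with the other-cell score, short of the threshold, at r = 0.75 (adjusted permutation p = 0.0539; rho = 0.66, adjusted permutation p = 0.0864) and r = 0.65 (adjusted permutation p = 0.0539; rho = 0.60, adjusted permutation p = 0.105). In old mice these were 0.83 for Glul and 0.72 for Rhbg, and on the second cull day 0.22 and 0.18 (n = 9 mice). The other relation of the 40 that passed was that of Slc1a2 with the share of a library's column total that lay in genes (r = 0.74, permutation p = 0.00068, adjusted p = 0.0272; rho = 0.76, permutation p = 0.00060, adjusted p = 0.0224), with r = 0.63 without the 2 farthest mice.

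**Figure D5:**
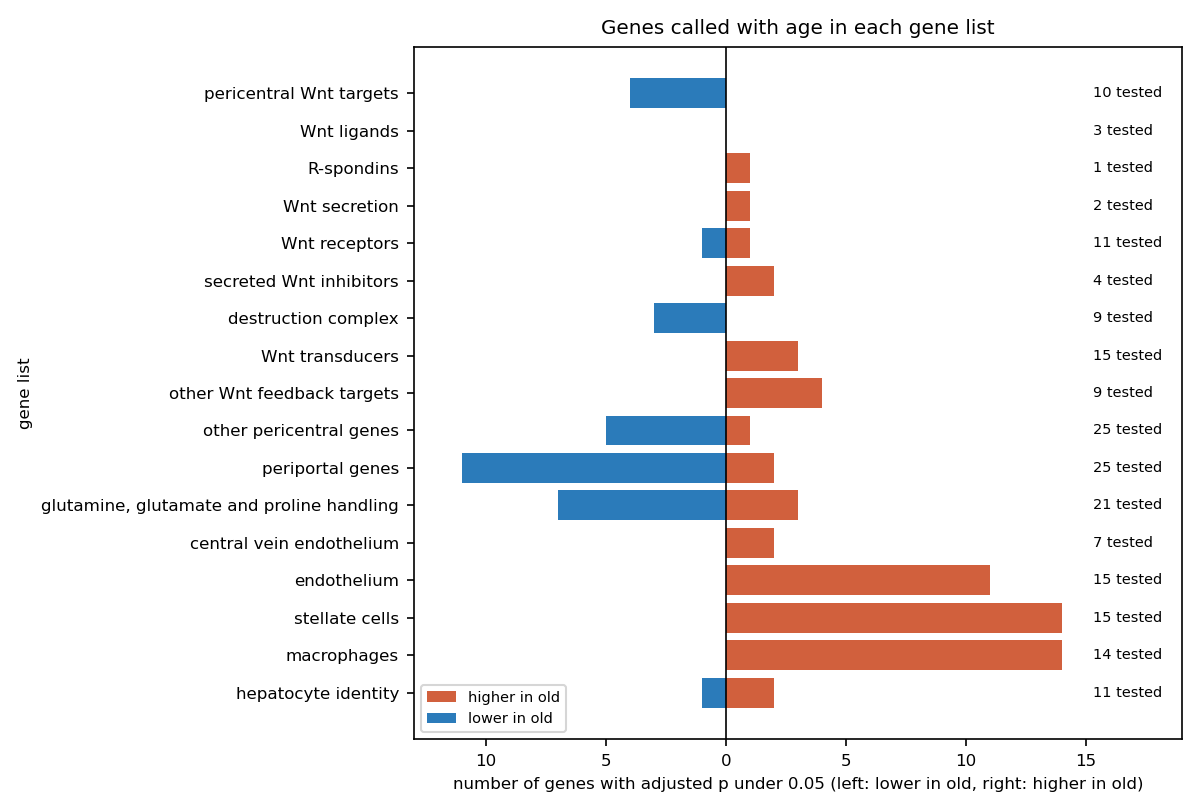
Number of tested genes called higher and lower in old mice in each gene list. Stellate cell, macrophage and endothelial markers are called higher, and lower calls number 11 of 25 periportal genes and 4 of the 10 members.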

How the data were processed

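The authors deposited 1 table with estimated counts of every gene in the 19 libraries, written by HOMER's analyzeRepeats.pl for mm10 over exons, per the file headers. The submitters' processing notes name STAR, HOMER, GRCm38 and mm10 without versions. RNA was extracted with Trizol and chloroform for a stranded paired-end library, per the labels. The strand setting of the counting is not given in the sources used here. The deposited gene length, a number of bases, gave CPM per kb. Counts were multiples of 0.5, with 29.2% of values not whole, and were rounded. Of the totals in the column names, 78.3% to 86.5% was in genes.

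Age was tested with edgeR 4.0.16 (R 4.3.3) after filterByExpr by age (minimum count 10), with TMM scaling, cull day as covariate and Benjamini-Hochberg adjustment at 0.05. The test was checked on simulated data for this comparison (12205 genes, 100 changed at each size). There 80% of log2 changes of 1 and 96% of log2 changes of 2 were recovered, and 4.35% of calls were false. Smaller changes, such as those of most members, were not simulated. CPM used a prior count of 2 on the log scale. Correlations were tested two-sided with 100000 permutations of mice within age and cull day. No 2 libraries were near-identical: the closest pair, 1184 and 1188, differed by a chi-square of 15.4 per degree of freedom. Separate mice rest on the labels. Alternatives used DESeq2 1.42.0 and limma 3.58.1, other scalings and filters, fewer mice and an other-cell covariate. The members and gene lists were chosen with earlier results of these data known. In each list the 2 genes with the smallest p were named, with Wnt2, Wnt9b, Rspo3, Ctnnb1, Cyp2e1, Cyp1a2, Cyp2f2 and the 5 genes most like Glul. Other genes, and the genes most like Tbx3 and Oat, were named after their values were seen. The cull day comparison was added after seeing the data. Some single-gene values are not reported here.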

Additional observations from a re-analysis of the deposited data

Results flagged for a closer look

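In the old group, Rhbg was highest in mouse 1187, at 3.54 CPM, far from the other 8 old mice. Rnf43 was highest in old mouse 1183, at 23.8 CPM, again apart from the others. Of the 20 groups checked, 1 per gene and age, these 2 held a mouse that stood apart by its gap to the nearest mouse, and chance alone marks about 1 group in 20. Without mouse 1187 the log2 fold change of Rhbg was -1.23 in place of -1.03, and without mouse 1183 the log2 fold change of Rnf43 was -0.024 in place of 0.08.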

How the results depend on the processing

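Of the 10 genes, 4 were called lower in the fit of all mice. The count was 2 without a cull day term, 2 without young mice 1184, 1186 and 1188, 0 on the first cull day alone and 0 on the second alone. It was 3 or 4 in the other 9 alternatives and 3 to 5 over the 19 fits without 1 mouse, with none called higher in any. The direction of Glul turned without the 3 young mice (0.022). Rnf43 turned on the second cull day alone (-0.15), without the 3 young mice (-0.10) and without old mouse 1183 (-0.024), with a range of -0.024 to 0.17 over the fits without 1 mouse. Lhpp was not called in 9 of 13 alternatives, where its adjusted p reached 0.253, and Slc1a2 was called without old mouse 1189 (-0.42, edgeR adjusted p = 0.0476). The causes were not tested. Correlated pairs numbered 4 without old mouse 1187 and 4 with the other-cell score removed. Members lower on the second cull day numbered 0 without the 3 young mice, 0 in young mice alone and 0 in old mice alone. Over all genes tested, 0 were called in each of these fits too. In young and old mice alone, Lgr5 was at -0.99 and -0.76 and Slc1a2 at -0.86 and -0.46. Glul was at -0.57 and -0.66 and Znrf3 at -0.39 and -0.38, with the same sign as in all mice. With library totals alone the median over all genes was 0.04, with 64.2% of calls higher against 53.0%. Over the alternatives, counts of genes called higher ran from 5 to 15 for stellate cell, 0 to 14 for macrophage and 0 to 11 for endothelial markers, and counts called lower from 0 to 12 for periportal and 1 to 10 for other pericentral genes. No paired analysis was possible because library numbers are not shared between ages. The planned test for genes below the filter was not run, since all 10 passed. Counts of 12 to 116 per library limit Rhbg.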
